A study of Mus musculus with 27 samples.

Results

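The genes followed here are 10 transcripts that interleukin 4 (IL-4) is known to raise in mouse macrophages: Retnla, Chil3, Arg1, Mrc1, Clec10a, Mgl2, Ccl22, Ccl24, Pdcd1lg2 and Fn1. They were chosen by name, with earlier results of these data known, and they are 10 of the 50559 genes in the count table. All 10 passed the filter on low counts and were among the 13614 genes tested. Cells were differentiated from bone marrow of female C57BL/6 mice of 3 to 4 months, either wild type (WT) or deficient in the mitochondrial chaperone TRAP1 (TRAP1 KO; the kind of allele is not given in the sources used here). Every group was differentiated in medium with L929 supernatant as the source of M-CSF, the macrophage growth factor. Unpolarized macrophages (Mφ) received no IL-4, and M2 cells received 10 ng/mL IL-4 for 24 h. Both were then kept for 48 h in control medium (DMEM) or in MPNST-CM, medium conditioned by cells of a malignant peripheral nerve sheath tumor, a murine line that came from skin precursors without Nf1 and p53. State, medium and genotype gave 8 groups with 3 libraries each in batch 1. The sources used here do not say whether IL-4 was present during those 48 h. For the sequenced cells they do not say whether Mφ had a matching 24 h without IL-4, so M2 and Mφ may also differ in time in culture. They also do not say whether the libraries of a group came from separate mice, so each p-value measures only the spread between these libraries, which may be technical.

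IL-4 binds a receptor on the macrophage surface and, through JAK kinases, activates the transcription factor STAT6, which moves to the nucleus and turns on the program called alternative or M2 activation. Its products take up glycoproteins, degrade arginine, attract other leukocytes and add to the matrix. The 10 genes cover these roles and are common readouts of M2 polarization in the mouse.

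Promoters are shown for the 3 members in which a palindromic STAT element was found, because STAT6 prefers the spacing TTCNNNNGAA and most other STAT proteins the shorter TTCNNNGAA. The windows ran from 250 bases before to 50 bases after the start annotated by RefSeq (GRCm38.p6), and 6 of the 10 members had an entry. Arg1, Clec10a, Ccl24 and Fn1 had none. Both motifs read the same on either strand, and no match overlapped another. Capitals mark the motif. Retnla is at chr16:48842359-48842658 on the plus strand, Chil3 at chr3:106167515-106167814 on the minus strand and Pdcd1lg2 at chr19:29410669-29410968 on the plus strand.
Retnla: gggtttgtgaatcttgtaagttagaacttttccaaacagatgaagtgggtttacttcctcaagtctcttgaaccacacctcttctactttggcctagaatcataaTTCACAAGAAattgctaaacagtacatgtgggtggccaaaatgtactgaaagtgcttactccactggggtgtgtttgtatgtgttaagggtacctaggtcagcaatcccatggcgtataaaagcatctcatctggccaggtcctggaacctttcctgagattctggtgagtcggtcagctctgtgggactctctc
Chil3: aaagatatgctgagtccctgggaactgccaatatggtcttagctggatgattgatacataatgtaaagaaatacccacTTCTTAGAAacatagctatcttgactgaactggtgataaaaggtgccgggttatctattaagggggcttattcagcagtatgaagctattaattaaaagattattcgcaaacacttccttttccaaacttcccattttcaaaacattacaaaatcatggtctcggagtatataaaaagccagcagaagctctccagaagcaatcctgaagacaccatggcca
Pdcd1lg2: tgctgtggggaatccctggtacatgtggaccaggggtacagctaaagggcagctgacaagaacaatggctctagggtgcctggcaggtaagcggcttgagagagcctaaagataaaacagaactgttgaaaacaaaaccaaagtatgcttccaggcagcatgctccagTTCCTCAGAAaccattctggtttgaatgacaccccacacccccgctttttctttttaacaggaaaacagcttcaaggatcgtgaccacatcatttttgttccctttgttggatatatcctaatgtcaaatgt
TTCNNNNGAA lay at positions -145 to -136 from the start in Retnla and at -82 to -73 in Pdcd1lg2, and 6.95% of the 32851 promoters held it. TTCNNNGAA lay at -172 to -164 in Chil3, and 8.3% of promoters held it. Mrc1, Mgl2 and Ccl22 had neither motif in this window, which says only that these letters are not there.

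The libraries were made by QuantSeq, a 3′ method that reads 1 fragment near the poly(A) tail of a transcript and keeps its strand. Batch 1 held between 7037684 and 9089792 counts per library, and levels are given as CPM, counts scaled to the size of the library after TMM normalization. Trap1 had 83 to 144 counts in the 12 WT libraries of batch 1 and 0 in the 12 TRAP1 KO libraries. Xist, which is transcribed from the inactive X chromosome, had 268 to 501 CPM in the former and at most 1.14 CPM in the latter, so in batch 1 the loss of TRAP1 and the absence of Xist cannot be told apart. A level of Xist near 0 goes against the sex that the sources give for the mice of both genotypes. The macrophage markers Adgre1 and Csf1r had at least 494 and 1439.8 CPM in every library. Batch 2 has 3 libraries, of which 1 is WT Mφ kept in control medium and 2 are TRAP1 KO M2, 1 per medium. Trap1 had 252 counts in the former and 0 and 2 counts in the latter, and Xist was at 308 and 404 CPM in these TRAP1 KO libraries. By their other genes, both TRAP1 KO libraries went against their labels. Across genes, the library labelled TRAP1 KO M2 in control medium correlated best with TRAP1 KO Mφ in MPNST-CM (Spearman's rho 0.969, against 0.913 with its labelled group). Its second closest group was TRAP1 KO M2 in MPNST-CM (rho 0.964). The library labelled TRAP1 KO M2 in MPNST-CM correlated best with WT M2 in control medium (rho 0.983 against 0.949). Almost as close to it was TRAP1 KO M2 in control medium (rho 0.982). The WT Mφ library correlated best with its labelled group (rho 0.988). The rule by which the members were followed names batch 1, so the results rest on its 24 libraries. Values with all 27 are given at the end.

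**Figure D1:**
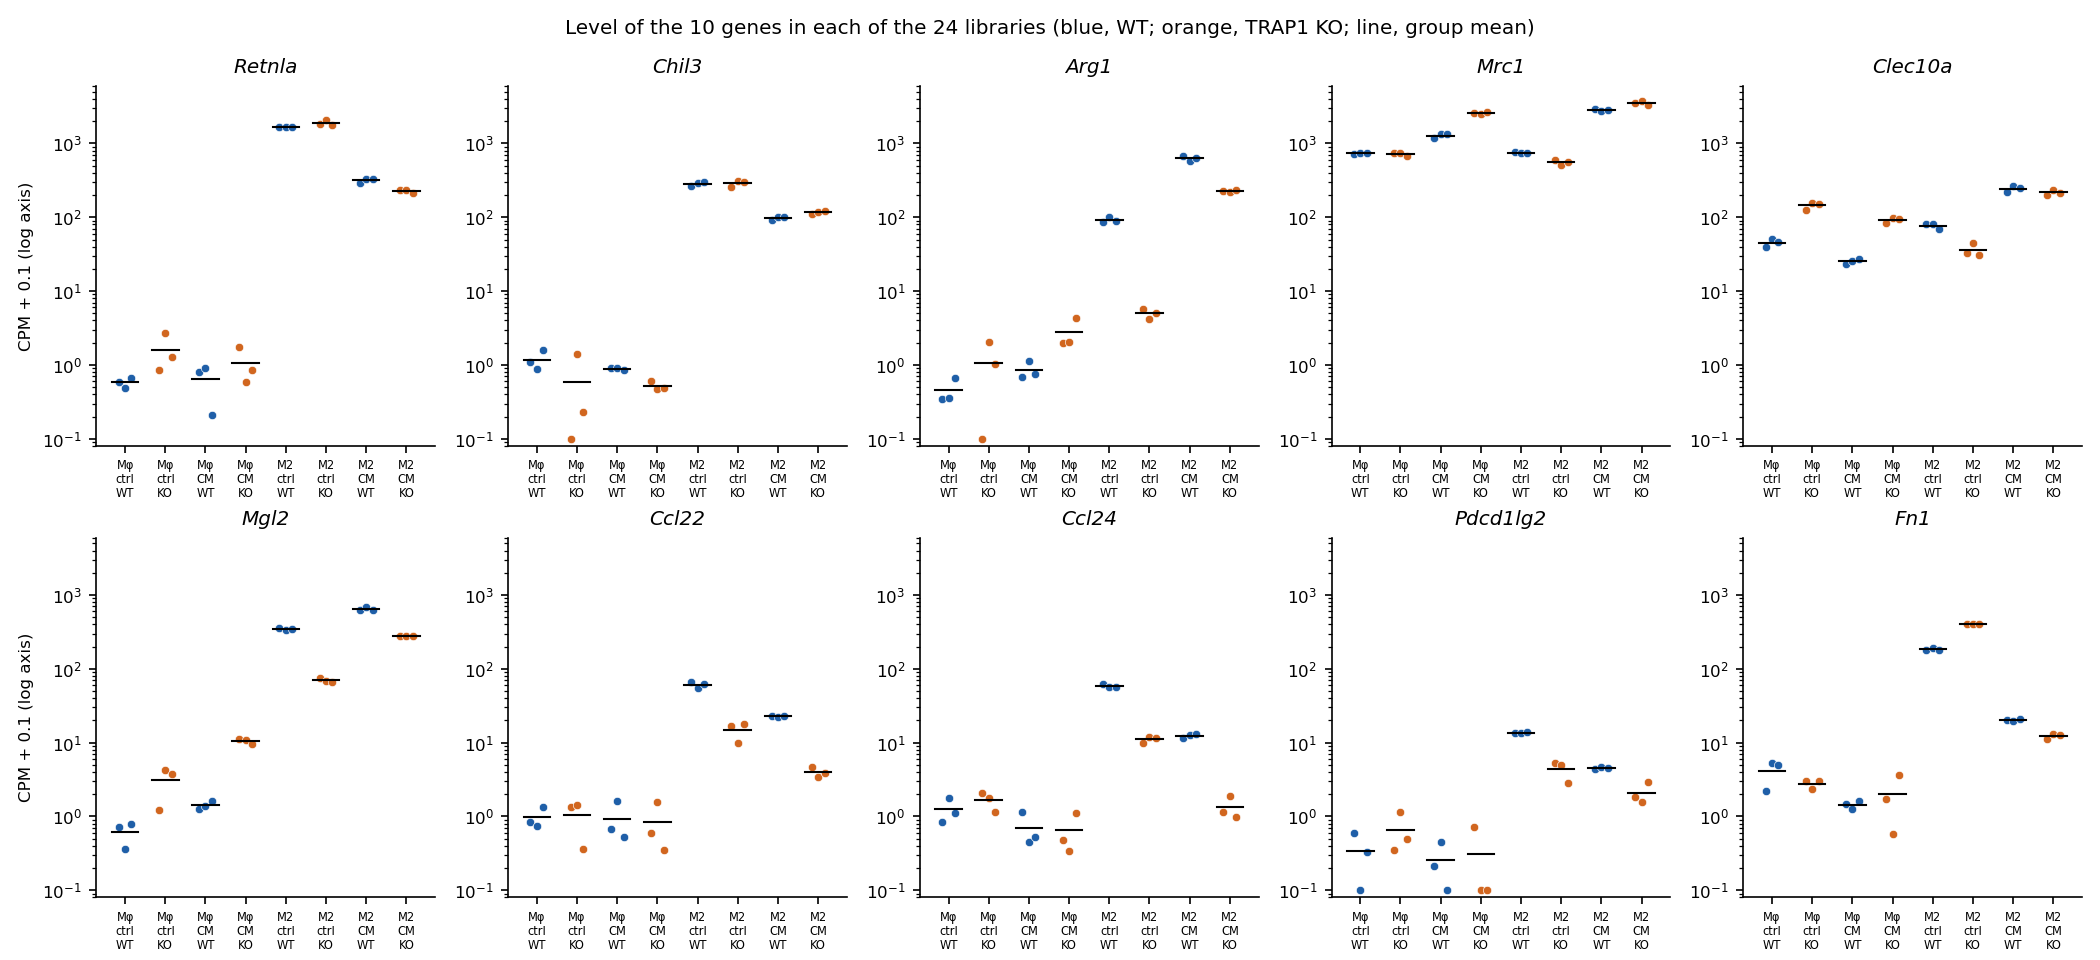
Level of the 10 genes as CPM on a log axis, with a small offset so that 0 can be drawn, in the 24 libraries of batch 1 (blue, WT; orange, TRAP1 KO; black line, mean of 3 libraries; ctrl, control medium; CM, MPNST-CM). Retnla, Chil3, Arg1, Ccl22, Ccl24, Pdcd1lg2 and Fn1 are at or under 5.21 CPM in all 12 Mφ libraries, and Mrc1 and Clec10a are at or above 22.9 CPM in every library.

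M2 cells were first set against Mφ, which asks which members carry the IL-4 response. In WT cells in control medium 9 of the 10 members were higher in M2, against 19.1% of all genes tested, and Mrc1 did not pass. In WT cells in MPNST-CM all 10 were higher, where 11.9% of genes were. In TRAP1 KO cells in control medium 8 members were higher, against 15.6% of genes, and 2, Mrc1 and Clec10a, were lower, against 12.9%. In TRAP1 KO cells in MPNST-CM 9 were higher, against 6.71%, and Ccl24 did not pass. The IL-4 response differed between genotypes for 7 members in control medium (7.08% of genes) and for 6 in MPNST-CM (7.18%). It differed between media for 4 members in WT (12.1%) and for 5 in TRAP1 KO (11.5%). These comparisons share libraries with each other.

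MPNST-CM was then set against control medium. In M2 cells it moved all 10 members in both genotypes, and each in the same direction in both. Arg1, Mrc1, Clec10a and Mgl2 rose, which is 4 members against 11.2% of genes in WT and 16.7% in TRAP1 KO. Retnla, Chil3, Ccl22, Ccl24, Pdcd1lg2 and Fn1 fell, which is 6 members against 13.3% and 20.2%. The size of this response differed between genotypes for 6 members, against 20.2% of genes. In Mφ, 2 members rose and 2 fell in WT, against 11.3% and 9.96% of genes, and 3 rose and 2 fell in TRAP1 KO, against 14.8% and 18.1%. The genotypes differed in that Mφ response for 1 member, Mrc1, against 19.7% of genes.

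Last, TRAP1 KO cells were compared with WT. In M2 cells in control medium 7 members were lower in TRAP1 KO, against 7.87% of genes, and 1, Fn1, was higher, against 8.56%. For M2 cells in MPNST-CM 7 members were lower, against 16.8%, and 1, Mrc1, was higher, against 17.2%. In Mφ no member passed as lower in TRAP1 KO. There, 3 were higher in control medium, against 8.64% of genes, and 4 in MPNST-CM, against 19.1%.

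Retnla encodes RELMα, a secreted protein of alternatively activated macrophages. In control medium its level was 0.491, 0.391 and 0.5696 CPM in the 3 WT Mφ libraries and 1693, 1644 and 1680.1 CPM in the 3 WT M2 libraries. In TRAP1 KO it was 0.7502, 2.62 and 1.18 CPM in Mφ and 1850.4, 2074 and 1763 CPM in M2. The M2 libraries of both genotypes were far above every Mφ library, and those of TRAP1 KO were all above those of WT. IL-4 raised Retnla by 11.698 (SE 0.26, adjusted p = 6.62e-20) in WT and by 10.28 (SE 0.24, adjusted p = 1.89e-19) in TRAP1 KO on the log2 scale, places 2 and 1 from the highest among all genes tested. Without replicate 2 of TRAP1 KO Mφ the latter was 10.92. In M2 cells in control medium the difference between genotypes, 0.18 (95% interval -0.11 to 0.47, adjusted p = 0.418), did not pass. In MPNST-CM the M2 level was 291, 330.4 and 332 CPM in WT and 231, 236 and 214 CPM in TRAP1 KO. Here TRAP1 KO lay below WT, and both lay below all M2 libraries in control medium. The medium lowered Retnla 5.26-fold in WT (log2 fold change -2.396, SE 0.15, adjusted p = 1.60e-11) and 8.35-fold in TRAP1 KO (log2 fold change -3.06, SE 0.15, adjusted p = 9.03e-14). The difference between these responses was -0.67 (SE 0.20, adjusted p = 0.01903). It missed the threshold without replicate 3 of TRAP1 KO M2 in MPNST-CM (-0.62, adjusted p = 0.0524, within 3.02e-06 to 0.922 over all alternatives). In that medium Retnla was 1.400-fold lower in TRAP1 KO M2 than in WT M2 (adjusted p = 0.00998).

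Chil3 encodes Ym1, a secreted chitinase-like protein. Its level in M2 cells in control medium was 267, 293 and 299.7 CPM in WT and 255, 312 and 299.9 CPM in TRAP1 KO, and in Mφ it was at most 1.48 CPM in any library. The WT values lay within the range of the TRAP1 KO values. IL-4 raised Chil3 by 8.01 (SE 0.24, adjusted p = 3.81e-18) in WT and by 9.205 (SE 0.27, adjusted p = 4.15e-18) in TRAP1 KO on the log2 scale, the latter being 8.61 or 11.82 without replicate 1 or 2 of TRAP1 KO Mφ. The M2 difference between genotypes was 0.012 (95% interval -0.29 to 0.31, adjusted p = 0.971) in control medium and 0.26 (95% interval -0.046 to 0.57, adjusted p = 0.185) in MPNST-CM. In the latter medium the M2 level was 91.8, 100.1 and 100.1 CPM in WT and 109.9, 117 and 123 CPM in TRAP1 KO, under every M2 library in control medium. MPNST-CM lowered Chil3 2.94-fold in WT (adjusted p = 2.29e-08) and 2.47-fold in TRAP1 KO (adjusted p = 1.33e-07), and these responses differed by 0.25 (95% interval -0.18 to 0.68, adjusted p = 0.463). Near the 3′ end, 12.4% of the 75-base windows of Chil3 also occur in Chil4 or Gm6522, so a part of its reads is uncertain.

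Arg1 encodes arginase 1, which splits arginine into ornithine and urea. In control medium its M2 level was 86.4, 100.3 and 89.4 CPM in WT but 5.55, 4.15 and 4.96 CPM in TRAP1 KO. In MPNST-CM it was 674, 586 and 636 CPM in WT and 227, 222 and 236 CPM in TRAP1 KO. The 4 M2 groups did not overlap, with WT in MPNST-CM highest and TRAP1 KO in control medium lowest, and every Mφ library was at or under 4.203 CPM. In control medium IL-4 raised Arg1 by 7.92 (SE 0.36, adjusted p = 2.72e-13) in WT and by 2.34 (SE 0.44, adjusted p = 0.000278) in TRAP1 KO, and the difference between genotypes was -5.57 (SE 0.80, adjusted p = 9.26e-05). Without replicate 1 or 2 of TRAP1 KO Mφ the rise in TRAP1 KO was 1.74 or 3.39 and the difference -6.17 or -4.52. In MPNST-CM the rise was 9.68 (SE 0.32, adjusted p = 2.81e-15) in WT, the largest of all genes tested there, and 6.41 (SE 0.27, adjusted p = 3.92e-13) in TRAP1 KO, and the difference was -3.27 (SE 0.51, adjusted p = 0.000214).

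Compared directly, TRAP1 KO M2 cells held 18.8-fold less Arg1 than WT M2 cells in control medium (log2 fold change -4.24, SE 0.25, adjusted p = 2.24e-10) and 2.77-fold less in MPNST-CM (-1.47, SE 0.19, adjusted p = 2.64e-06). MPNST-CM raised Arg1 6.86-fold in WT M2 (adjusted p = 9.22e-10) and 46.7-fold in TRAP1 KO M2 (adjusted p = 2.54e-13). The response was larger in TRAP1 KO by 2.77 (SE 0.31, adjusted p = 1.30e-06) on the log2 scale. Arg1 in TRAP1 KO M2 cells in MPNST-CM, at a mean of 228 CPM, was thus above WT M2 cells in control medium, at 92.02 CPM, but under WT M2 cells in MPNST-CM, at 632 CPM.

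Mrc1 encodes the mannose receptor CD206, an endocytic lectin that many macrophages carry without IL-4. In control medium it was high in Mφ already, at 714, 748 and 737 CPM in WT and 742, 747 and 679 CPM in TRAP1 KO. WT M2 cells held 757, 752 and 750.4 CPM and TRAP1 KO M2 cells 597, 516 and 561 CPM. The WT M2 libraries were just above each WT Mφ library, and the TRAP1 KO M2 libraries were under all others. The IL-4 change of 0.039 (95% interval -0.11 to 0.19, adjusted p = 0.708) in WT did not pass, and in TRAP1 KO Mrc1 fell by 0.37 (SE 0.07, adjusted p = 0.000219). The difference, -0.41 (SE 0.10, adjusted p = 0.0105), missed the threshold without replicate 2 of WT M2 or of TRAP1 KO M2 (adjusted p = 0.0531 and 0.0611, within 0.00158 to 0.965 over all alternatives).

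In MPNST-CM, Mrc1 in Mφ was 1169, 1346 and 1328 CPM in WT and 2609, 2542 and 2659 CPM in TRAP1 KO. In M2 cells it was 2970.4, 2759 and 2801 CPM in WT and 3485, 3769 and 3289 CPM in TRAP1 KO. All TRAP1 KO libraries were above the WT libraries of their state in this medium, by 1.02 (SE 0.07, adjusted p = 1.08e-11) in Mφ and by 0.31 (SE 0.07, adjusted p = 0.00156) in M2. MPNST-CM raised Mrc1 1.75-fold in WT Mφ and 3.602-fold in TRAP1 KO Mφ, and the responses differed by 1.04 (SE 0.10, adjusted p = 1.44e-08). In M2 it raised Mrc1 3.77-fold in WT and 6.298-fold in TRAP1 KO, and the responses differed by 0.74 (SE 0.10, adjusted p = 4.47e-06). The genotype difference in M2 thus had opposite signs in the 2 media, since in control medium Mrc1 was 1.35-fold lower in TRAP1 KO (adjusted p = 0.000105).

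**Figure D2:**
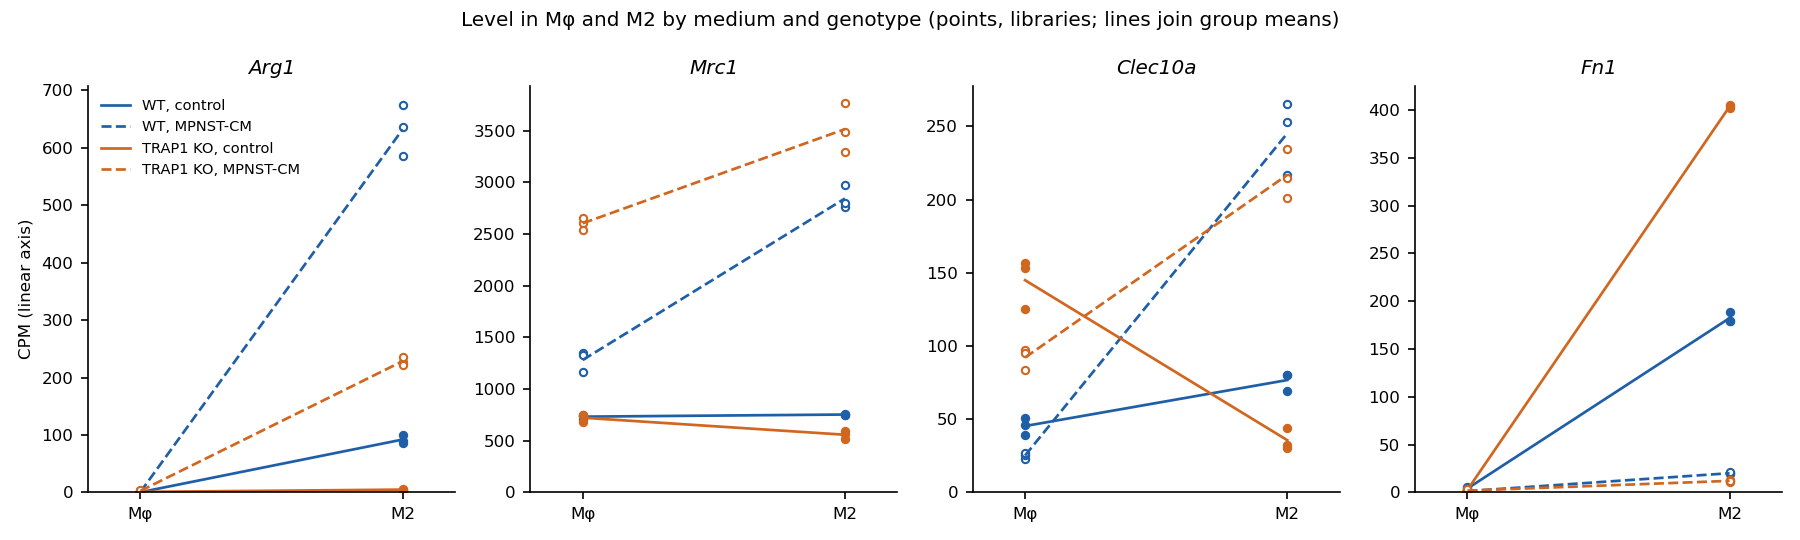
Level in Mφ and M2 of Arg1, Mrc1, Clec10a and Fn1 on a linear CPM axis, for WT (blue) and TRAP1 KO (orange) in control medium (filled points, solid lines) and MPNST-CM (open points, dashed lines). Points are libraries and lines join the means of 3. In control medium the Clec10a lines cross, from 45.3 to 76.7 CPM in WT and from 145 to 35.7 CPM in TRAP1 KO.

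Clec10a and Mgl2 encode the related galactose-type lectins MGL1 and MGL2. Near the 3′ end, 7.36% of the 75-base windows of Clec10a also occur in Mgl2, and 2.51% of those of Mgl2 in Clec10a, so a part of their reads is uncertain. In control medium Clec10a in Mφ was 39.1, 51.1 and 45.8 CPM in WT and 125, 157 and 153 CPM in TRAP1 KO. In M2 cells it was 80.4, 80.4 and 69.4 CPM in WT and 32.3, 44.2 and 30.6 CPM in TRAP1 KO. TRAP1 KO was the higher genotype in Mφ and the lower one in M2, with no overlap in either state. Clec10a rose 1.69-fold with IL-4 in WT (log2 fold change 0.76, SE 0.13, adjusted p = 2.40e-05) and fell 4.05-fold in TRAP1 KO (-2.02, SE 0.13, adjusted p = 1.60e-12), a difference of -2.78 (SE 0.18, adjusted p = 4.85e-11). Of the 10 members it was the 1 whose IL-4 response passed in opposite directions in the 2 genotypes.

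In MPNST-CM, Clec10a in Mφ was 22.9, 25.7 and 27.1 CPM in WT and 83.5, 97.5 and 95.4 CPM in TRAP1 KO. In M2 cells it was 217, 265 and 253 CPM in WT and 201, 235 and 215 CPM in TRAP1 KO, where the genotypes overlapped. IL-4 raised Clec10a in both genotypes in this medium, by 3.28 (SE 0.13, adjusted p = 3.15e-16) in WT and by 1.23 (SE 0.12, adjusted p = 3.38e-08) in TRAP1 KO. MPNST-CM lowered it 1.79-fold in WT Mφ (adjusted p = 3.44e-05) and 1.57-fold in TRAP1 KO Mφ (adjusted p = 0.000113), but raised it 3.195-fold in WT M2 (adjusted p = 6.27e-11) and 6.07-fold in TRAP1 KO M2 (adjusted p = 6.64e-15). This change of the response between Mφ and M2 was 2.52 (SE 0.18, adjusted p = 3.89e-10) in WT and 3.25 (SE 0.18, adjusted p = 2.84e-13) in TRAP1 KO. The genotypes differed by -0.18 (95% interval -0.42 to 0.068, adjusted p = 0.272) in M2 cells in MPNST-CM, against -1.102 (SE 0.13, adjusted p = 6.88e-07) in control medium, and the 2 differences were themselves apart by 0.92 (SE 0.18, adjusted p = 0.000301).

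Mgl2 in control medium was 0.613, 0.261 and 0.684 CPM in WT Mφ and 1.13, 4.19 and 3.68 CPM in TRAP1 KO Mφ. In M2 cells it was 354, 331 and 342 CPM in WT and 75.3, 67.6 and 66.2 CPM in TRAP1 KO. As for Clec10a, TRAP1 KO lay above WT in Mφ and below it in M2, with no overlap. The IL-4 rise was 9.299 (SE 0.23, adjusted p = 8.65e-21) in WT and 4.54 (SE 0.18, adjusted p = 2.48e-16) in TRAP1 KO, and the difference was -4.76 (SE 0.37, adjusted p = 3.28e-09). In MPNST-CM it was 1.16, 1.27 and 1.51 CPM in WT Mφ and 10.99, 10.6 and 9.42 CPM in TRAP1 KO Mφ, and 631, 683 and 627 CPM in WT M2 and 280.1, 278 and 276 CPM in TRAP1 KO M2. The order of the 4 groups was the same as in control medium. TRAP1 KO M2 cells held 4.91-fold less Mgl2 than WT M2 in control medium (adjusted p = 5.88e-12) and 2.33-fold less in MPNST-CM (adjusted p = 2.25e-08). TRAP1 KO Mφ held 5.502-fold more (adjusted p = 1.69e-05) and 7.77-fold more (adjusted p = 1.68e-10). In control medium the WT Mφ libraries had only 2 to 6 Mgl2 counts each. The IL-4 rise of 9.299, the difference of -4.76 and the 5.502-fold value rest on these counts.

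MPNST-CM raised Mgl2 1.89-fold in WT M2 (adjusted p = 3.12e-06) and 3.99-fold in TRAP1 KO M2 (adjusted p = 3.14e-12), and the responses differed by 1.08 (SE 0.18, adjusted p = 6.48e-05). It raised Mgl2 3.46-fold in TRAP1 KO Mφ (adjusted p = 1.36e-07). The rise in WT Mφ, 2.45-fold (adjusted p = 0.03000), missed the threshold in 4 of the 6 fits that left out 1 library. These were without replicate 1 or 2 in control medium (adjusted p = 0.05402 and 0.138) and without replicate 2 or 3 in MPNST-CM (0.0559 and 0.102), within 0.0289 to 0.812 over all alternatives. It also missed it with the WT Mφ library of batch 2 added (adjusted p = 0.118).

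Ccl22 and Ccl24 encode chemokines, the former a ligand of CCR4 on T cells and the latter, eotaxin 2, a ligand of CCR3 on eosinophils. Ccl22 was 65.4, 55.4 and 61.9 CPM in WT M2 and 16.5, 9.64 and 17.8 CPM in TRAP1 KO M2 in control medium, and 22.9, 21.96 and 22.8 CPM and 4.63, 3.28 and 3.797 CPM in MPNST-CM. Ccl24 was 62.05, 56.9 and 56.7 CPM in WT M2 and 9.91, 11.8 and 11.6 CPM in TRAP1 KO M2 in control medium, and 11.4, 12.4 and 12.96 CPM and 1.06, 1.81 and 0.886 CPM in MPNST-CM. For both genes TRAP1 KO lay below WT in either medium, and MPNST-CM lay below control medium in either genotype, with no overlap. In the 12 Mφ libraries neither gene exceeded 2.001 CPM. TRAP1 KO M2 cells held 4.16-fold less Ccl22 in control medium (adjusted p = 1.37e-06) and 5.79-fold less in MPNST-CM (adjusted p = 1.33e-07). They held 5.26-fold less Ccl24 in control medium (adjusted p = 1.69e-09) and 9.56-fold less in MPNST-CM (adjusted p = 4.02e-10). MPNST-CM lowered Ccl22 2.700-fold in WT M2 and 3.76-fold in TRAP1 KO M2, and these responses differed by -0.48 (95% interval -1.24 to 0.29, adjusted p = 0.428). It lowered Ccl24 4.76-fold and 8.65-fold, and these responses differed by -0.86 (95% interval -1.59 to -0.13, adjusted p = 0.0891). The latter passed without replicate 2 of TRAP1 KO M2 in MPNST-CM (-1.24, adjusted p = 0.0386, within 0.02203 to 0.729 over all alternatives), with no filter on low counts (adjusted p = 0.0412) and with the compared groups alone (adjusted p = 0.02203).

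The IL-4 rise of Ccl24 in control medium was 5.66 (SE 0.26, adjusted p = 1.51e-15) in WT and 2.79 (SE 0.27, adjusted p = 5.65e-09) in TRAP1 KO, and the difference was -2.87 (SE 0.43, adjusted p = 4.47e-05). In MPNST-CM it was 4.31 (SE 0.31, adjusted p = 2.42e-11) in WT (4.92 without replicate 1 of WT Mφ), and the value of 1.21 (95% interval 0.27 to 2.14, adjusted p = 0.0941) in TRAP1 KO, where M2 and Mφ libraries overlapped, did not pass. Without replicate 3 of TRAP1 KO Mφ it passed (1.99, adjusted p = 0.0186, within 0.0186 to 0.436 over all alternatives). The difference there, -3.105 (SE 0.64, adjusted p = 0.001903), was -3.71 without replicate 1 of WT Mφ and -2.32 without replicate 3 of TRAP1 KO Mφ (adjusted p = 0.1199, within 3.05e-05 to 0.9797). For Ccl22 the rise was 6.07 (SE 0.34, adjusted p = 4.88e-13) in WT and 3.93 (SE 0.37, adjusted p = 7.98e-09) in TRAP1 KO in control medium. In MPNST-CM it was 4.74 (SE 0.35, adjusted p = 2.30e-10) in WT (5.44 without replicate 2 of WT Mφ) and 2.35 (SE 0.45, adjusted p = 0.000721) in TRAP1 KO (3.31 without replicate 2 of TRAP1 KO Mφ). The differences between genotypes for Ccl22, -2.14 (SE 0.63, adjusted p = 0.0387) in control medium and -2.38 (SE 0.69, adjusted p = 0.0333) in MPNST-CM, lay near the threshold.

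In control medium the Ccl22 difference missed the threshold in 8 of 12 fits that left out 1 library, those without replicate 1 or 2 of WT Mφ, any replicate of WT M2, replicate 1 or 2 of TRAP1 KO Mφ, or replicate 2 of TRAP1 KO M2. The adjusted p then ran from 0.0501 to 0.201 (within 0.000242 to 0.337 over all alternatives). In MPNST-CM it missed the threshold in 6 of 12, those without replicate 1 or 3 of WT Mφ, replicate 3 of WT M2, replicate 2 of TRAP1 KO Mφ, or replicate 2 or 3 of TRAP1 KO M2. The adjusted p then ran from 0.0525 to 0.488 (within 0.000125 to 0.7499). Without replicate 2 of WT Mφ in MPNST-CM the difference stayed past the threshold at -3.09. With the WT Mφ library of batch 2 added it missed it (adjusted p = 0.0614).

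Pdcd1lg2 encodes PD-L2, a ligand of an inhibitory receptor on T cells, and had few counts. In Mφ it was at 0 to 1.05 CPM, at most 8 counts in a library, and in 7 of the 12 Mφ libraries it was under 3 counts, taken here as the floor of detection. The M2 level in control medium was 13.5, 13.2 and 13.9 CPM in WT and 5.25, 4.82 and 2.76 CPM in TRAP1 KO, and in MPNST-CM it was 4.27, 4.51 and 4.403 CPM and 1.72, 1.47 and 2.78 CPM. WT lay above TRAP1 KO in both media, while the 2 TRAP1 KO groups overlapped. TRAP1 KO M2 cells held 3.17-fold less in control medium (-1.66, SE 0.37, adjusted p = 0.00216) and 2.21-fold less in MPNST-CM (-1.14, SE 0.42, adjusted p = 0.0381). MPNST-CM lowered it 3.07-fold in WT M2 (adjusted p = 0.00135) and 2.14-fold in TRAP1 KO M2 (adjusted p = 0.0461). The genotype call in MPNST-CM was lost without replicate 2 or 3 of WT M2 (adjusted p = 0.0817 and 0.0764) or replicate 1 or 2 of TRAP1 KO M2 (0.115 and 0.1503), within 0.00215 to 0.394 over all alternatives. The medium call in TRAP1 KO was lost without replicate 1 or 2 in control medium (adjusted p = 0.161 and 0.1301) or in MPNST-CM (0.1300 and 0.1700), within 0.00708 to 0.704.

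IL-4 raised Pdcd1lg2 by 5.71 (SE 0.55, adjusted p = 3.23e-09) in WT and by 2.89 (SE 0.53, adjusted p = 0.000115) in TRAP1 KO in control medium. In MPNST-CM the rise was 4.73 (SE 0.64, adjusted p = 2.62e-06) in WT and 3.16 (SE 0.70, adjusted p = 0.00261) in TRAP1 KO. Since the Mφ level was a few counts, 1 library moved each of these, to 6.63 without replicate 1 of WT Mφ and 3.67 without replicate 2 of TRAP1 KO Mφ in control medium, and to 5.94 without replicate 2 of WT Mφ and 6.98 without replicate 1 of TRAP1 KO Mφ in MPNST-CM. Each of them stayed past the threshold.

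Fn1 encodes fibronectin, a glycoprotein of the extracellular matrix. The M2 level in control medium was 179.8, 188 and 179 CPM in WT and 402, 404 and 405 CPM in TRAP1 KO. In MPNST-CM it was 19.9, 19.4 and 21.01 CPM in WT and 10.98, 12.9 and 12.4 CPM in TRAP1 KO, and Mφ held 0.487 to 5.21 CPM in the 2 media. The order of the genotypes in M2 was opposite in the 2 media, with no overlap in either. Fn1 was 2.21-fold higher in TRAP1 KO in control medium (1.15, SE 0.18, adjusted p = 8.83e-05), the 1 member that passed in that direction, and 1.66-fold lower in MPNST-CM (-0.73, SE 0.22, adjusted p = 0.0124). The latter call was lost without replicate 1 of TRAP1 KO M2 in MPNST-CM (-0.67, adjusted p = 0.0548, within 1.23e-06 to 0.836 over all alternatives). MPNST-CM lowered Fn1 9.07-fold in WT M2 (adjusted p = 8.28e-11) and 33.3-fold in TRAP1 KO M2 (adjusted p = 3.90e-14), and the responses differed by -1.88 (SE 0.28, adjusted p = 3.49e-05). The IL-4 rise in control medium was 5.48 (SE 0.24, adjusted p = 6.02e-14) in WT and 7.23 (SE 0.26, adjusted p = 2.76e-15) in TRAP1 KO, a difference of 1.75 (SE 0.38, adjusted p = 0.00478). In MPNST-CM it was 3.88 (SE 0.30, adjusted p = 2.03e-09) in WT and 2.68 (SE 0.30, adjusted p = 1.86e-06) in TRAP1 KO (3.51 without replicate 3 of TRAP1 KO Mφ). The difference there, -1.19 (95% interval -2.21 to -0.18, adjusted p = 0.182), did not pass, except without replicate 2 of TRAP1 KO Mφ among the fits that left out 1 library (-1.66, adjusted p = 0.00598, within 0.00598 to 0.995). It also passed with DESeq2 (adjusted p = 0.01398) and with no filter on low counts (adjusted p = 0.0109).

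**Figure D3:**
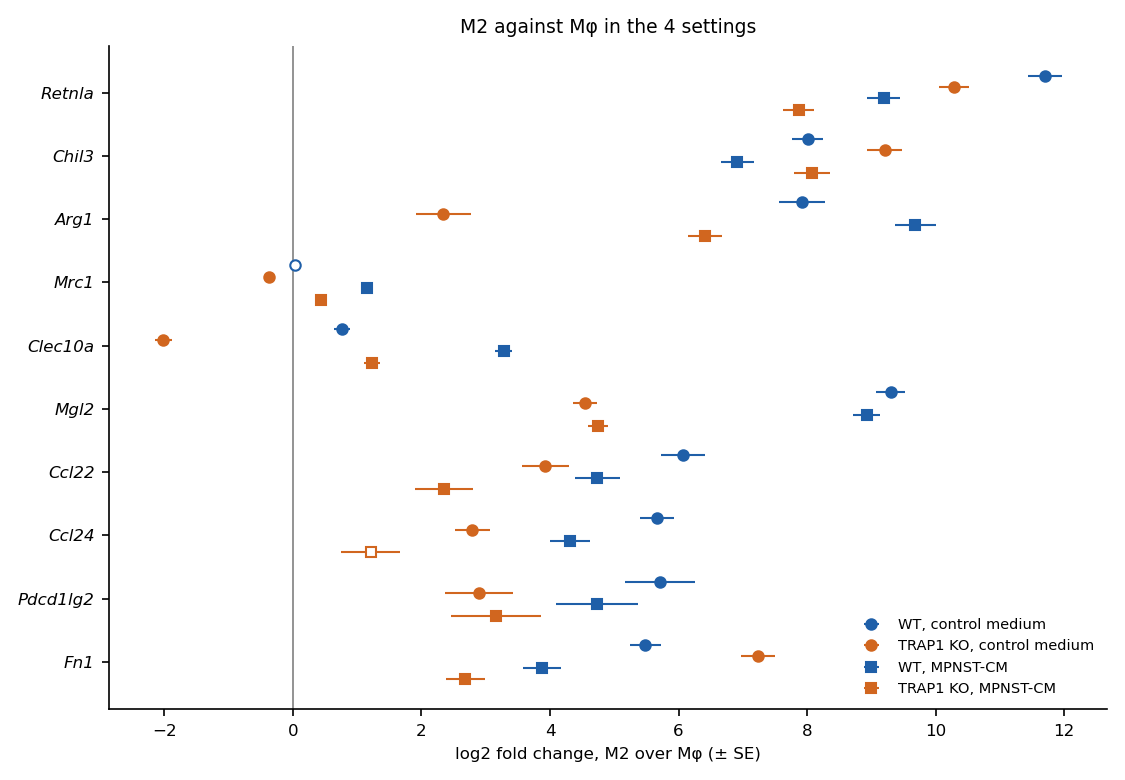
IL-4 response of the 10 genes as the log2 fold change of M2 over Mφ (± SE, 3 libraries a group) in WT (blue) and TRAP1 KO (orange), in control medium (circles) and MPNST-CM (squares). Filled symbols passed an adjusted p of 0.05 and open symbols did not. Retnla in WT in control medium is farthest to the right at 11.698, and Clec10a in TRAP1 KO in control medium farthest to the left at -2.02.

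Over the 10 members the median IL-4 response was 5.89 on the log2 scale in WT and 3.41 in TRAP1 KO in control medium, and 4.73 and 2.92 in MPNST-CM, while the median over all genes tested lay between -0.05 and 0.01. The members varied widely. In control medium the difference between genotypes ran from -5.57 for Arg1 to 1.75 for Fn1, and among those that passed 6 were lower and 1 was higher in TRAP1 KO. Retnla, at -1.42 (95% interval -2.48 to -0.35, adjusted p = 0.108), passed without replicate 1 of TRAP1 KO Mφ (-1.75, adjusted p = 0.0279, within 0.0279 to 0.775 over all alternatives), with DESeq2 (adjusted p = 0.04604) and with no filter on low counts (adjusted p = 0.0399). Chil3, at 1.196 (95% interval 0.057 to 2.33, adjusted p = 0.228), passed without replicate 2 of TRAP1 KO Mφ (3.81, adjusted p = 0.000559, within 0.000559 to 0.791). Pdcd1lg2, at -2.81 (95% interval -4.73 to -0.899, adjusted p = 0.0684), passed without replicate 1 of WT Mφ (-3.73, adjusted p = 0.0424) or replicate 1 of TRAP1 KO Mφ (-3.17, adjusted p = 0.0467, within 0.00544 to 0.395). It also passed with DESeq2 (adjusted p = 0.00937), with no filter (0.00544), with the compared groups alone (0.03502) and with the WT Mφ library of batch 2 added (0.0346). In MPNST-CM the remaining differences that passed were -0.72 (SE 0.10, adjusted p = 1.92e-05) for Mrc1, -2.04 (SE 0.18, adjusted p = 9.53e-09) for Clec10a and -4.18 (SE 0.27, adjusted p = 5.31e-11) for Mgl2.

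The IL-4 response changed with the medium for Retnla, Mrc1, Clec10a and Fn1 in WT and for these and Arg1 in TRAP1 KO. For Retnla the change was -2.51 (SE 0.65, adjusted p = 0.0126) in WT and -2.41 (SE 0.49, adjusted p = 0.00147) in TRAP1 KO. For Fn1 it was -1.61 (SE 0.46, adjusted p = 0.0246) in WT and -4.55 (SE 0.48, adjusted p = 6.57e-07) in TRAP1 KO, the latter being -3.72 without replicate 3 of TRAP1 KO Mφ in MPNST-CM. In WT the call on Retnla was lost without replicate 1 or 2 of Mφ in MPNST-CM (adjusted p = 0.0794 and 0.1097, within 0.000379 to 0.8003 over all alternatives), and that on Fn1 without replicate 1 or 3 (adjusted p = 0.07198 and 0.0994, within 2.27e-05 to 0.845). In TRAP1 KO the call on Retnla was lost without replicate 1 of Mφ in MPNST-CM (-1.81, adjusted p = 0.0537, within 1.32e-07 to 0.942), and the value was -3.05 without replicate 2 of Mφ in control medium. For Mrc1 the response was larger in MPNST-CM by 1.11 (SE 0.10, adjusted p = 3.77e-08) in WT and by 0.81 (SE 0.10, adjusted p = 1.80e-06) in TRAP1 KO. For Arg1 it was larger by 4.07 (SE 0.67, adjusted p = 0.000235) in TRAP1 KO (4.67 and 3.02 without replicate 1 or 2 of TRAP1 KO Mφ in control medium), and the change in WT was 1.77 (95% interval -0.11 to 3.65, adjusted p = 0.236). The latter passed with DESeq2 (adjusted p = 0.0276) and with the compared groups alone (adjusted p = 0.0479), within 0.0276 to 0.634 over all alternatives. In TRAP1 KO, Ccl22 and Ccl24 passed with DESeq2 (adjusted p = 0.0419 and 0.0479), where the values in the fit reported here were -1.57 (95% interval -2.98 to -0.17, adjusted p = 0.164) and -1.58 (95% interval -2.79 to -0.37, adjusted p = 0.0871).

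**Figure D4:**
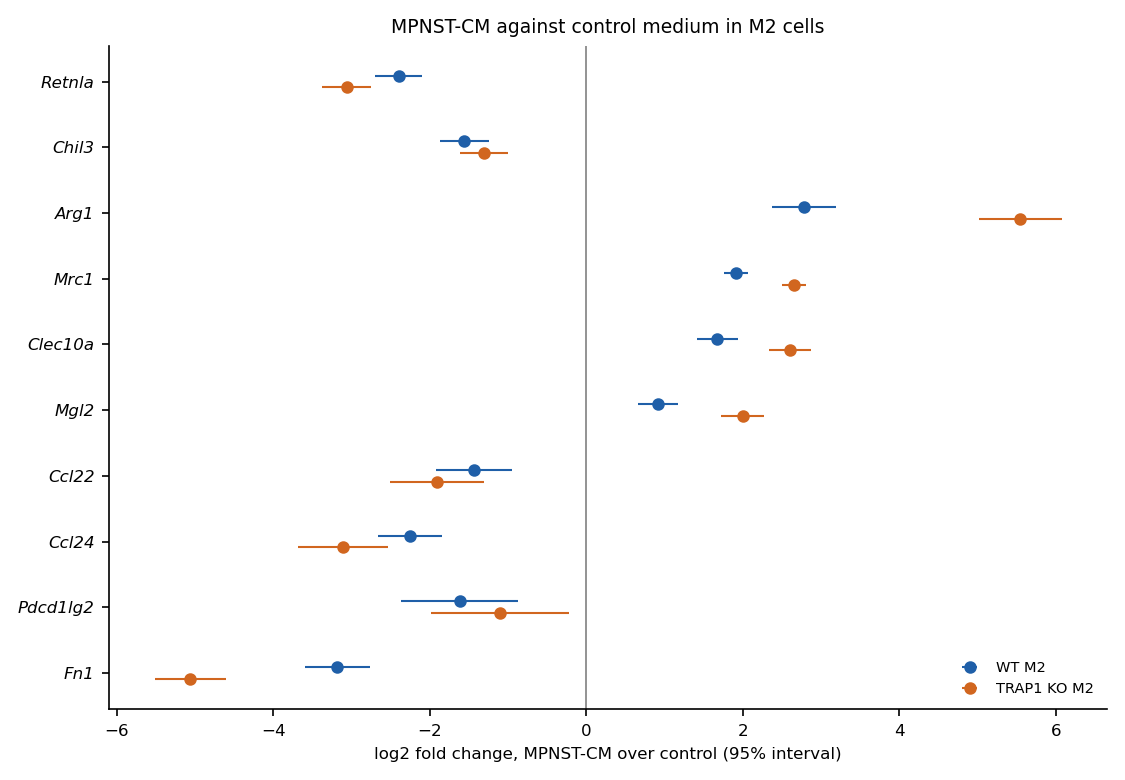
Response of the 10 genes to MPNST-CM in M2 cells as the log2 fold change over control medium with its 95% interval (blue, WT; orange, TRAP1 KO; 3 libraries a group). Every value passed an adjusted p of 0.05. Arg1, Mrc1, Clec10a and Mgl2 lie to the right of 0 in both genotypes and the other genes to the left, from -5.06 for Fn1 to 5.55 for Arg1, both in TRAP1 KO.

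Sorted by role among the 10 members only, the lectins and arginase rose with MPNST-CM in M2 cells. The chemokines, PD-L2, fibronectin and the secreted RELMα and Ym1 fell. On the log2 scale the rise was larger in TRAP1 KO than in WT for Arg1, Mrc1, Clec10a and Mgl2, and the fall was larger for Retnla and Fn1. In CPM the rise of Arg1 and Mgl2 was instead larger in WT. Mean Arg1 went from 92.02 to 632 CPM in WT and from 4.89 to 228 CPM in TRAP1 KO. Mean Mgl2 went from 342 to 647 CPM in WT and from 69.7 to 278 CPM in TRAP1 KO. The median over the 10 members was -1.49 in WT and -1.203 in TRAP1 KO, against -0.03 and -0.01 over all genes. In Mφ the medium raised Mrc1 and Mgl2 and lowered Clec10a in both genotypes, as given above. Fn1 in WT Mφ went from 2.09, 5.21 and 4.899 CPM to 1.39, 1.15 and 1.51 CPM, with no overlap (2.98-fold lower, adjusted p = 0.00412). Ccl24 in TRAP1 KO Mφ went from 2.001, 1.702 and 1.05 CPM to 0.374, 0.243 and 1.02 CPM (2.89-fold lower, log2 fold change -1.53, adjusted p = 0.00777). This call was lost without replicate 2 in MPNST-CM (adjusted p = 0.0585, within 0.00116 to 0.563 over all alternatives), and the value was -2.31 without replicate 3. Arg1 in TRAP1 KO Mφ went from 0, 1.96 and 0.921 CPM to 1.87, 1.95 and 4.203 CPM, with overlap (2.78-fold higher, log2 fold change 1.47, adjusted p = 0.0223). This call was lost without replicate 1 or 3 in control medium or replicate 3 in MPNST-CM (adjusted p = 0.0567, 0.06197 and 0.156, within 0.000277 to 0.175), and the value was 2.52 without replicate 2 in control medium. It was also lost with no filter on low counts (adjusted p = 0.0505) and with the compared groups alone (adjusted p = 0.175).

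**Figure D5:**
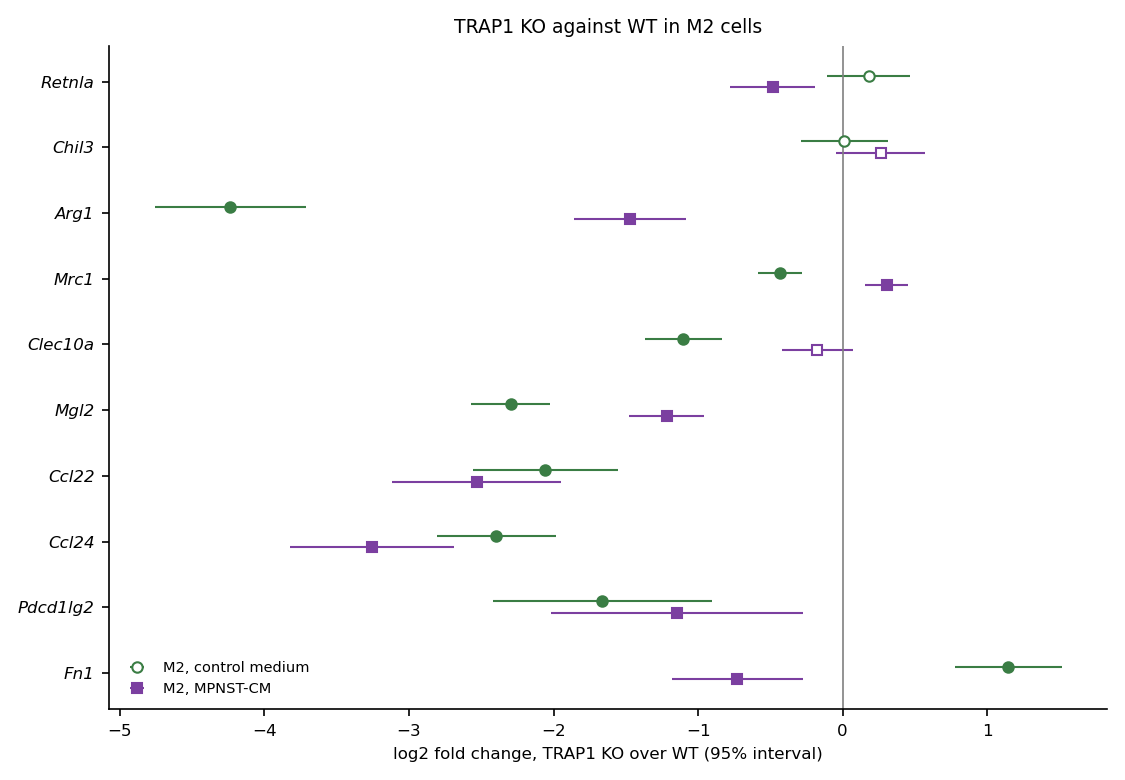
Difference between TRAP1 KO and WT M2 cells as the log2 fold change with its 95% interval, in control medium (green circles) and MPNST-CM (purple squares), 3 libraries a group. Filled symbols passed an adjusted p of 0.05. Arg1 in control medium lies farthest to the left at -4.24, and Mrc1 and Fn1 change sides between the media.

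Arg1, Mgl2, Ccl22, Ccl24 and Pdcd1lg2 were lower in TRAP1 KO M2 cells in both media, and the median difference over the 10 members was -1.38 in control medium and -0.94 in MPNST-CM, against 0.02 and 0.05 over all genes. The Mφ members that passed were all higher in TRAP1 KO. Clec10a was 3.197-fold higher in control medium (adjusted p = 2.47e-10) and 3.65-fold higher in MPNST-CM (adjusted p = 8.94e-12). Arg1 in Mφ in MPNST-CM was 0.579, 1.04 and 0.647 CPM in WT and 1.87, 1.95 and 4.203 CPM in TRAP1 KO (3.48-fold higher, adjusted p = 0.00599), a call lost without replicate 3 of TRAP1 KO (adjusted p = 0.0532, within 1.60e-05 to 0.0848 over all alternatives). Retnla in Mφ in control medium was 3.03-fold higher in TRAP1 KO (adjusted p = 0.0264). That call was lost without replicate 1, 2 or 3 of WT (adjusted p = 0.07300, 0.0905 and 0.0582) or replicate 2 of TRAP1 KO (0.287), within 0.00531 to 0.805.

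Among 8196 genes with a mean of at least 10 CPM, those most like each member over the 24 libraries were found by Pearson's r of log2 CPM. This is a description, since libraries of a group share their treatment. Retnla and Pdcd1lg2 were closest to Rnase2a (r = 0.985 and 0.951) and Chil3 to Timp1 (r = 0.974). Arg1 was closest to Msx3 (r = 0.968), Mgl2 to Cd200r1 (r = 0.949), Ccl22 to Ocstamp (r = 0.964) and Ccl24 to Tacc2 (r = 0.961). Fn1 was closest to Creg1 (r = 0.974), Mrc1 to Ms4a6d (r = 0.974) and Clec10a to Cltc (r = 0.8399). Among the members themselves r ran from -0.35 for Mrc1 and Fn1 to 0.98 for Retnla and Chil3. Arg1 and Mgl2 had r = 0.95, Ccl22 and Ccl24 r = 0.92, and Mrc1 and Retnla r = -0.01.

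The other genes of the pathway were read in the same fit. Of 11 genes of IL-4 receptor signalling, 4 rose and 3 fell with IL-4 in WT and 2 rose and 5 fell in TRAP1 KO in control medium, and 4 rose and 3 fell in WT and 1 rose and 2 fell in TRAP1 KO in MPNST-CM. Over all genes tested, in the same order, 19.1% rose and 18.1% fell, 15.6% rose and 12.9% fell, 11.9% rose and 13% fell, and 6.71% rose and 4.47% fell. The list had a median change of 0.06 in WT and -0.37 in TRAP1 KO in control medium, against -0.03 over all genes in each. Cish and Socs1, feedback inhibitors of cytokine signalling, rose by 4.24 and 2.804 in WT in control medium. In TRAP1 KO Cish rose by 1.03 and Socs1 fell by 1.86, from a mean of 6.68 CPM in Mφ to 1.83 CPM in M2, against 3.93 and 27.4 CPM in WT. The genotypes differed in this response by -4.66 (SE 0.43, adjusted p = 3.39e-08) for Socs1 and by -3.21 (SE 0.49, adjusted p = 5.29e-05) for Cish. The receptor chain Il2rg and the adaptor Irs2 rose by 0.86 and 1.24 in WT, and in TRAP1 KO Il2rg rose by 0.31 (adjusted p = 0.0156) and Irs2 was at 0.33 (adjusted p = 0.165).

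Of 11 transcription factors and cofactors of alternative activation, 8 rose with IL-4 in WT and 6 in TRAP1 KO in control medium, 9 rose in WT and 2 in TRAP1 KO in MPNST-CM, and none passed as lower. The shares of all genes that rose in these comparisons were 19.1%, 15.6%, 11.9% and 6.71%. In control medium Egr2 rose by 3.11 in WT and 2.43 in TRAP1 KO, Irf4 by 3.04 and 1.34, Ppargc1b by 2.85 and 1.93, and Klf4 by 2.02 and 1.83. In M2 cells in control medium 7 of the 11 were lower in TRAP1 KO and 0 higher, and in MPNST-CM 5 were lower and 3 higher, against 7.87% and 8.56% of all genes in the former medium and 16.8% and 17.2% in the latter. Irf4 was lower in TRAP1 KO M2 cells in both media, by -1.81 (SE 0.18, adjusted p = 3.41e-08) and -2.53 (SE 0.24, adjusted p = 3.65e-09). Ppargc1b, a coactivator of mitochondrial genes, had a smaller IL-4 response in MPNST-CM than in control medium in WT, by -2.32 (SE 0.24, adjusted p = 2.70e-07).

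Of 20 other genes known to be raised by IL-4, 17 were tested, as Chil4, Cd209a and Il4i1 did not pass the filter. In control medium 15 rose and 1 fell with IL-4 in WT and 15 rose and 1 fell in TRAP1 KO. Of all genes tested, 19.1% rose and 18.1% fell in WT and 15.6% rose and 12.9% fell in TRAP1 KO. MPNST-CM lowered 12 and raised 2 in M2 cells of WT, with the same numbers in TRAP1 KO, against 13.3% and 11.2% of all genes in WT and 20.2% and 16.7% in TRAP1 KO. In M2 cells 15 were lower in TRAP1 KO in control medium and 14 in MPNST-CM, where 7.87% and 16.8% of all genes were, and none passed as higher. The integrin Itgax rose with IL-4 by 4.38 in WT and 4.23 in TRAP1 KO, the VEGF receptor Flt1 by 6.68 and 4.46, the proton pump subunit Atp6v0d2 by 3.38 and 2.58, and the cell fusion protein Dcstamp by 4.15 and 3.52. Clec7a, the receptor dectin 1, rose by 3.03 and 1.55, a difference of -1.48 (SE 0.11, adjusted p = 1.31e-09). Flt1 was lower in TRAP1 KO M2 cells by -1.85 (SE 0.11, adjusted p = 5.88e-12) in control medium and -3.28 (SE 0.13, adjusted p = 2.01e-16) in MPNST-CM.

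Of 8 relatives of the members, 3 were tested. In control medium Cd274, which encodes PD-L1, rose with IL-4 by 1.46 in WT (adjusted p = 0.000991) and was at -0.18 in TRAP1 KO (adjusted p = 0.705). The lectin Clec4n rose by 1.15 in WT and was at 0.23 in TRAP1 KO (adjusted p = 0.0588), and the scavenger receptor Cd163 fell by 0.75 in WT and was at 0.498 in TRAP1 KO (adjusted p = 0.116). Of 10 markers of classical activation 9 were tested, and 3 rose and 4 fell with IL-4 in WT and 0 rose and 5 fell in TRAP1 KO in control medium, where 19.1% of all genes rose and 18.1% fell in WT and 15.6% rose and 12.9% fell in TRAP1 KO. Fcgr1, the Fc receptor CD64, fell by 2.89 in WT and by 2.11 in TRAP1 KO, the chemokine Cxcl10 by 4.14 and by 4.98, and the costimulatory Cd86 by 1.08 and by 1.48. Ptgs2, which encodes the cyclooxygenase COX-2, rose by 2.19 in WT and was at -0.59 in TRAP1 KO (adjusted p = 0.263). The IL-4 response of Cxcl10 in TRAP1 KO changed with the medium by 5.07 (SE 0.28, adjusted p = 2.36e-13). This came with a fall in Mφ, from a mean of 221 CPM in control medium to 4.95 CPM in MPNST-CM. TRAP1 KO M2 cells held a mean of 6.999 and 5.27 CPM in these media.

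Markers of other cells moved with some of these groups. In M2 cells in control medium 4 mast cell and basophil markers summed to 3.76 to 4.79 CPM in WT and 1.35 to 2.41 CPM in TRAP1 KO, against 0.123 to 0.342 and 0 to 0.131 CPM in Mφ. The 5 neutrophil markers summed to 15.02 to 19.98 CPM in WT M2 and 9.76 to 12.99 CPM in TRAP1 KO M2, against 6.501 to 9.51 and 1.63 to 2.24 CPM in Mφ. In MPNST-CM the M2 sums were 0.754 to 1.71 and 0.452 to 0.794 CPM for the former list and 8.05 to 10.98 and 4.63 to 6.21 CPM for the latter. The eosinophil list summed to 54.6 to 58.1 CPM in WT M2 and 59.4 to 68.5 CPM in TRAP1 KO M2 in control medium and to 4.54 to 7.18 and 5.24 to 5.65 CPM in Mφ. In MPNST-CM it summed to 26.3 to 39.5 CPM in WT M2 and 4.18 to 4.36 CPM in TRAP1 KO M2. These sums lay under those in control medium in both genotypes, and those of TRAP1 KO lay under those of WT in MPNST-CM, as for Retnla, Ccl22, Ccl24 and Fn1. For Pdcd1lg2 the media overlapped in TRAP1 KO M2. Siglecf gave most of each sum, while the defining granule genes Prg2 and Epx were at 0 in 21 and 22 of the 24 libraries. The endothelial list, Cdh5 and Kdr, summed to 3.15 to 3.63 CPM in WT M2 and 3.999 to 5.36 CPM in TRAP1 KO M2 in control medium. For M2 in MPNST-CM the sums were 19.6 to 28.8 and 42.99 to 44.4 CPM, and for Mφ in control medium 16.8 to 21.4 and 26.1 to 32.5 CPM. In Mφ in MPNST-CM WT was the higher genotype, at 51.2 to 56.7 CPM against 39.5 to 40.5 CPM in TRAP1 KO. T cell markers were at or under 0.276 CPM and B cell markers at or under 0.122 CPM, and Hba-a1 was at 0 in all 24 libraries. The 5 dendritic cell markers summed to 13.5 to 16.1 CPM in WT M2 and 8.84 to 13.1 CPM in TRAP1 KO M2 in control medium, with no overlap. For M2 in MPNST-CM the sums were 13.5 to 17.98 and 17.2 to 19.7 CPM, with overlap. In Mφ they were 6.84 to 13.2 and 10.5 to 12.3 CPM in control medium. Those of Mφ in MPNST-CM were 5.07 to 7.44 CPM in WT and 9.37 to 12.98 CPM in TRAP1 KO, with no overlap. The 6 fibroblast or tumour cell markers summed to 0.1502 to 1.404 CPM in WT M2 and 2.07 to 4.35 CPM in TRAP1 KO M2 in control medium, with no overlap, where Fn1 was higher in TRAP1 KO too, and to 0.366 to 2.01 and 1.85 to 3.29 CPM in MPNST-CM, with overlap. In Mφ they summed to at most 2.55 CPM, and Sox10 was at 0 in 22 of the 24 libraries. The part of such cells in the values of the members was not tested. In bulk samples, fewer cells of a type and less RNA per cell cannot be told apart.

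With all 27 libraries, that is with the 2 that went against their labels, the number of members called went from 10 to 3 for MPNST-CM in WT M2, from 10 to 4 in TRAP1 KO M2, and from 8 to 2 for genotype in M2 in MPNST-CM. Calls over all genes fell as well, from 24.5% to 7.39%, from 36.8% to 6.02% and from 34% to 12.2% of the genes tested. In that last comparison Retnla was at 1.97 and Fn1 at 2.69 in place of -0.49 and -0.73. The library labelled TRAP1 KO M2 in MPNST-CM had 4469 CPM Retnla, 501 CPM Fn1, 697 CPM Mrc1 and 48.5 CPM Arg1, each outside the range of its group in batch 1. The library labelled TRAP1 KO M2 in control medium had 24.03 CPM Retnla, 3.73 CPM Fn1 and 2.87 CPM Mgl2, again outside that range. The WT Mφ library of the second batch had 601 CPM Mrc1 and 49.5 CPM Clec10a.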

How the data were processed

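QuantSeq 3′ libraries were read for 75 bases as single ends. Per the labels and the methods of the study, the authors trimmed reads with Trimmomatic, checked them with FastQC, mapped them with HISAT2, kept alignments of a mapping quality of at least 20 with SAMtools and counted them on genes with featureCounts (versions are not given in the sources used here). The deposited values are raw read counts per gene for each library. The labels name the build mm39 and the methods mm10, so no gene coordinates were taken from the counts. Columns of 5 samples outside this set were not used.

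Genes passing filterByExpr by group (13614) were fitted in edgeR 4.0.16 (R 4.3.3, limma 3.58.1) with TMM scaling and the robust quasi-likelihood test, in 1 fit of the 24 libraries of batch 1, with 12 comparisons of 2 groups and 6 differences of differences. Tests were two-sided, and p-values were adjusted by Benjamini-Hochberg over all genes tested, with a threshold of 0.05. The SE was taken from the F statistic. The script was tested on simulated counts. The 10 members and the gene lists were chosen with earlier results of these data known. All 10 members are named, and from each list the 4 genes with the smallest adjusted p for IL-4 in WT in control medium and the gene whose IL-4 response depended on medium or genotype with the smallest adjusted p. Clec7a was named by the latter rule, and Flt1 and Irf4 values beyond IL-4 were chosen after they were seen. Depth was 7037684 to 9089792 counts in batch 1 and 9997776 to 11152362 in batch 2. A floor of 3 counts covers counting error only. Libraries of a group differed by more than counting noise in all 24 pairs. Alternatives were other size factors, DESeq2 1.42.0, no filter, a log2 fold change of 1 or more in size, all 27 libraries with and without batch, a replicate block, the compared groups alone, and each library left out.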

Additional observations from a re-analysis of the deposited data

Results flagged for a closer look

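With all 27 libraries, the groups with 4 libraries gave 30 sets over the 10 members, each examined for a library far from the other 3. Chance gives about 1 in 20, or 1.5, for separate sets, but these share libraries and are not independent. Of the 30 sets, 13 held such a library. The library labelled TRAP1 KO M2 in MPNST-CM in batch 2 gave 7 of them. It had 4469 CPM Retnla against 213 to 235 CPM in the others, 499 CPM Chil3 against 109.8 to 123, 31.8 CPM Ccl24 against 0.884 to 1.799 and 501 CPM Fn1 against 10.97 to 12.8. It was low in Arg1, at 48.5 CPM against 221 to 235, in Mrc1, at 697 CPM against 3281 to 3751, and in Mgl2, at 165 CPM against 276 to 279.9. The library labelled TRAP1 KO M2 in control medium in batch 2 was low in 4 genes. It had 24.03 CPM Retnla against 1734 to 2032, 2.87 CPM Mgl2 against 65.1 to 74.01, 0.0957 CPM Ccl24 against 9.73 to 11.5 and 3.73 CPM Fn1 against 395 to 398. Among WT Mφ in control medium, the batch 2 library had 5.76 CPM Chil3 against 0.784 to 1.49, and replicate 1 of batch 1 had 2.100 CPM Fn1 against 4.94 to 5.35.

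Responses that differed between groups by a test of the difference itself (edgeR, adjusted p under the threshold) are given on the log2 scale. The IL-4 response differed between TRAP1 KO and WT in control medium by -5.57 for Arg1, -0.41 for Mrc1, -2.78 for Clec10a, -4.76 for Mgl2, -2.14 for Ccl22, -2.87 for Ccl24 and 1.75 for Fn1, and in MPNST-CM by -3.27 for Arg1, -0.72 for Mrc1, -2.04 for Clec10a, -4.18 for Mgl2, -2.38 for Ccl22 and -3.105 for Ccl24. It differed between MPNST-CM and control medium in WT by -2.51 for Retnla, 1.11 for Mrc1, 2.52 for Clec10a and -1.61 for Fn1, and in TRAP1 KO by -2.41 for Retnla, 4.07 for Arg1, 0.81 for Mrc1, 3.25 for Clec10a and -4.55 for Fn1. The response to MPNST-CM differed between TRAP1 KO and WT in Mφ by 1.04 for Mrc1, and in M2 by -0.67 for Retnla, 2.77 for Arg1, 0.74 for Mrc1, 0.92 for Clec10a, 1.08 for Mgl2 and -1.88 for Fn1.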

How the results depend on the processing

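Of 180 values (10 members in 18 comparisons), all kept their direction and side of the threshold with median-of-ratios size factors, which moved the median of all genes by at most 0.04. With DESeq2 174 did and 6 more passed (the genotype difference in the IL-4 response of Retnla and Pdcd1lg2 in control medium and of Fn1 in MPNST-CM, and its change with the medium of Arg1 in WT and of Ccl22 and Ccl24 in TRAP1 KO). With no filter 174 did, 5 more passed and 1 was lost. Asking for a log2 fold change of 1 or more in size lost 17, which left 2 members for MPNST-CM in WT Mφ, 5 for genotype in M2 in MPNST-CM and 3 for the genotype difference in the M2 response to MPNST-CM. The share of all genes past that cut is not given here, so these counts have nothing to be set against. With the compared groups alone 149 of 153 kept them, 3 more passed and 1 was lost. This left 3 members for MPNST-CM in TRAP1 KO Mφ, where 33.1% of all genes passed. For genotype in Mφ in control medium it left 1, where 16.7% of all genes passed. The other values could not be given, as the gene failed the filter there. A fit of batch 1 with the WT Mφ library of batch 2, chosen after seeing the data, kept 176, lost 2 and added 2.

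With all 27 libraries 126 values were kept, 47 lost and 7 reversed. The members called, with the share of all genes called in brackets, were 1 (6.98%) and 2 (19.3%) for MPNST-CM in WT and TRAP1 KO Mφ, 3 (7.39%) and 4 (6.02%) in WT and TRAP1 KO M2, 1 (6.22%) for genotype in Mφ in control medium, 2 (12.2%) in M2 in MPNST-CM, 3 (1.24%) and 3 (0.947%) for the genotype difference in the IL-4 response in control medium and MPNST-CM, 1 (1.4%) and 2 (2.97%) for its difference between media in WT and TRAP1 KO, and 0 (4.76%) and 1 (1.31%) for the genotype difference in the response to MPNST-CM in Mφ and M2. Calls over all genes were fewer in all 18 comparisons, at 0.0654 to 0.729 times those of the fit reported here. The reversed values were 0.17 for Ccl24 with MPNST-CM in TRAP1 KO M2, 1.97, -0.069 and 2.69 for Retnla, Mrc1 and Fn1 between genotypes in M2 in MPNST-CM, 0.48 for the change of the Retnla IL-4 response with the medium in TRAP1 KO, and 2.22 and 1.98 for the genotype difference in the M2 response to MPNST-CM of Retnla and Fn1. With batch as a covariate 126 were kept, 50 lost and 4 reversed. The members called, with the same share, were 1 (9.23%) and 3 (20.6%) for MPNST-CM in WT and TRAP1 KO Mφ, 3 (8.82%) and 4 (7.2%) in WT and TRAP1 KO M2, 1 (6.14%) for genotype in Mφ in control medium, 1 (13.4%) in M2 in MPNST-CM, 3 (0.889%) and 3 (1.06%) for the genotype difference in the IL-4 response in control medium and MPNST-CM, 1 (2.38%) and 2 (3.53%) for its difference between media in WT and TRAP1 KO, and 0 (5.66%) and 1 (1.96%) for the genotype difference in the response to MPNST-CM in Mφ and M2, and calls over all genes were again fewer in all 18, at 0.0978 to 0.749 times. The reversed values were 0.19, -0.027 and 0.53 for Retnla, Mrc1 and Fn1 between genotypes in M2 in MPNST-CM and 0.45 for the Retnla difference in the M2 response to MPNST-CM. These fits add 2 libraries that went against their labels.

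Leaving out 1 library at a time gave 1440 values, of which 1375 were kept, 45 lost, 20 newly passed and none reversed. The number of members called ran from 2 to 5 for the change of the IL-4 response with the medium in WT, where it was 2 without replicate 1 of WT Mφ in MPNST-CM, and from 1 to 2 for the genotype difference in the Mφ response to MPNST-CM, where it was 2 without replicate 1 of WT Mφ in control medium or replicate 2 of TRAP1 KO Mφ in MPNST-CM. It stayed within 1.5 times the main count in the other comparisons. In the fit reported here 12.1% of all genes passed in the former of the comparisons named and 19.7% in the latter. The shares with a library left out are not given here.

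Libraries of different groups share replicate numbers, and nothing in the labels says what a number stands for. The numbers were not taken as pairing, since not every pair with the same number correlated over 0.1, but libraries with the same number leaned together. Deviations from the group means correlated on average at 0.107 over 77 pairs with the same number (lowest -0.21, 34 over 0.1) and at -0.05 over 175 other pairs, and 14 of 23 libraries correlated best with their own number, which is a hint from the data and not from the design. The replicate block changed the number of calls over all genes to 0.889 to 1.26 times, by comparison. With it 178 values were kept and 2 lost, both for Ccl22, whose genotype difference in the IL-4 response was -2.16 (adjusted p = 0.0684) in control medium and -2.39 (adjusted p = 0.05201) in MPNST-CM. Low counts limit the members in Mφ, where Retnla, Chil3, Arg1, Ccl22, Ccl24 and Pdcd1lg2 had a few counts per library and IL-4 fold changes rest on them. The same holds for Mgl2 in WT Mφ in control medium, at 2 to 6 counts per library. The cause of each change above was not tested.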
